A study of Mus musculus with 2 samples.

Results

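The miR-29 family is encoded in the mouse by 4 miRNA genes, Mir29a, Mir29b-1, Mir29b-2 and Mir29c, and these 4 were taken by symbol from the 2202 miRNA genes of GENCODE M21 that the count tables list. They were measured in left cerebral cortex of B6CASTF1/J mice, first-generation hybrids that carry 1 genome from C57BL/6J and the other from CAST/EiJ, at an age of 18 to 20 months. There was 1 group with no treatment or mutation, made of 2 libraries of RNA shorter than 30 nucleotides, called replicate 1 and replicate 2, each from a biological replicate with 1 technical replicate. The labels give the sex as female in 2 fields and as male in the free text, and both libraries carry the same donor identifier. Nothing in the labels says that they came from separate animals, so the spread between them may be technical. There is no second condition, and no p-value is given.

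miRNAs are cut from hairpin precursors as short 5p and 3p arms, and one arm is loaded into Argonaute, where its seed pairs with target mRNAs and lowers their output. The 3p arm is the one usually loaded for miR-29. The family is best known for repressing collagens and other extracellular matrix genes, the DNA methyltransferases Dnmt3a and Dnmt3b and the survival factor Mcl1. In mouse brain it rises as neurons mature, where it restrains BH3-only death genes, and it is also abundant in astrocytes.

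The 3 mature 3p sequences of the family are shown first, because what can be counted at each gene turns on how they differ. They are RefSeq sequences on GRCm38.p6, 5′ to 3′, with the seed (bases 2 to 8) in capitals.
miR-29a-3p (Mir29a): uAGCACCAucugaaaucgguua
miR-29b-3p (Mir29b-1 and Mir29b-2): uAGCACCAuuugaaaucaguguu
miR-29c-3p (Mir29c): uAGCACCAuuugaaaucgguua
All 3 carry the seed AGCACCA, which among 1738 mature arms in the RefSeq table stood in those of these 4 genes and no others. Counting from 1 at the 5′ end, miR-29a-3p and miR-29c-3p differed by C10U alone over 22 positions, with the base of miR-29a-3p given first. Compared with miR-29c-3p, the first 22 positions of miR-29b-3p held A18G, G21U and U22A, with the base of miR-29b-3p first. The 23 bases of miR-29b-3p were identical at its 2 genes. Its last 6 bases, AGUGUU, are an element described in human cells as directing miR-29b to the nucleus. That end was found on 3 of 1738 arms (0.173%), at Mir29b-1, Mir29b-2 and Mir92b, and on neither miR-29a-3p nor miR-29c-3p.

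The hairpins are shown next because their 5p arms and loops are where the genes can be told apart. Capitals mark the 5p arm and then the 3p arm.
Mir29a: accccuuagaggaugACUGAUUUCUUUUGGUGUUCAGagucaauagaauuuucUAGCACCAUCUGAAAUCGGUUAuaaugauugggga
Mir29b-1: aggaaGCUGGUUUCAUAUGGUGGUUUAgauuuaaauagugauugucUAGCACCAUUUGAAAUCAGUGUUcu
Mir29b-2: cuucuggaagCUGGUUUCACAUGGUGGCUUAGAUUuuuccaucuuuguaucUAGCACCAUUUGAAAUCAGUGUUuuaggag
Mir29c: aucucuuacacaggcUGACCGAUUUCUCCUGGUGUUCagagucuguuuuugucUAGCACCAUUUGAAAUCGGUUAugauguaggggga
The hairpin of Mir29a, on 88 bases, was most like that of Mir29c, with 78.0% identity in a global alignment, and that of Mir29b-1 was most like that of Mir29b-2, with 73.2%. Thus each hairpin resembled a partner on the other chromosome more than its own neighbour, to which identity was 60.4% for Mir29a and Mir29b-1 and 63.2% for Mir29b-2 and Mir29c. The longest exact run shared by Mir29b-1 and Mir29b-2 was 25 bases and covered the whole 3p arm. Mir29b-1 also shared 22 bases with Mir29c, in a run that begins in the loop and ends inside the 3p arm, while Mir29a shared at most 14 bases with any other member. The predicted folding energy per base, an estimate from RNAfold, lay between -0.37 kcal/mol for Mir29b-1 and -0.40 kcal/mol for Mir29c. All 4 were between the lower and upper quartiles of the 2202 miRNA genes, which were -0.44 and -0.30 kcal/mol, with a median of -0.37 kcal/mol.

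The family lies in 2 clusters of 2 genes. On chromosome 6, Mir29a (ENSMUSG00000065610.1, 31062660 to 31062747, mm10) and Mir29b-1 (ENSMUSG00000065604.2, 31063023 to 31063093) stand 275 bases apart on the minus strand. Mir29a overlaps no other annotated gene, and Mir29b-1 shares its first 2 bases with the single exon of the long non-coding RNA Gm27019. The long non-coding gene Lncpint ends 19.5 kb upstream on the same strand. On chromosome 1, Mir29b-2 (ENSMUSG00000065412.3, 195037040 to 195037120) and Mir29c (ENSMUSG00000065548.1, 195037547 to 195037634) stand 426 bases apart on the plus strand. Both lie wholly within an exon of a transcript of the non-coding host gene A330023F24Rik. On the opposite strand both lie within an exon of a transcript of Cd46, which encodes a complement regulator, outside its coding sequence. The nearest further miRNA gene was Mir335 for the chromosome 6 cluster, 321.3 kb away, and Gm24802 for the chromosome 1 cluster, 190.6 kb away.

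The tables give unnormalized read counts per gene, and a level here is the sense count per 1000000 sense counts of all miRNA genes (CPM), not divided by length because a mature arm fits within 1 read. Sense totals were 5166667 counts in replicate 1 and 4459993 in replicate 2, so that 3 counts, the limit a count of 0 allows, correspond to 0.581 and 0.673 CPM. Intervals are 95% and exact, and they cover counting error only. In these libraries the cortical marker lists were detected, with 8 of 11 neuronal genes expressed (34642 ± 3089 CPM in sum; SD, n = 2), 5 of 5 glial genes (40133 ± 6880 CPM), 2 of 3 oligodendrocyte genes (3908 ± 62.4 CPM), 5 of 5 microglial and leukocyte genes (1969 ± 46.1 CPM) and the endothelial gene Mir126a (15834 ± 7669 CPM). The neuronal Mir124a-1, Mir124a-2 and Mir124a-3 were near 0, with 21, 1 and 2 counts in replicate 1 and 6, 2 and 1 in replicate 2. All 3 share 20 bases with another miRNA gene, so their counts are uncertain. Markers with high mean levels share such a stretch too and carry the same limit, among them Mir128-1 (17218 CPM), Mir23b (23713 CPM) and Mir126a. Markers of red cells (65.9 ± 18.7 CPM, 2 of 2 matched genes expressed), liver (57.3 ± 3.90 CPM, 1 of 1) and striated muscle (41.8 ± 33.4 CPM, 1 of 5, with Mir1a-1, Mir1a-2, Mir133a-1 and Mir133a-2, which share 20 bases with another miRNA gene, at 0 in both libraries) were low. The 5 epithelial genes, all expressed, summed to 1465 CPM in replicate 1, against 120.6 CPM in replicate 2.

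All 4 miR-29 genes were expressed, taken as 2 CPM or more in both libraries, a level reached by 18.6% of all annotated miRNA genes. The family held 118092 sense counts in replicate 1 and 82719 in replicate 2. Its sum was 22857 and 18547 CPM, or 20702 ± 3047 CPM (SD, n = 2), which was 2.07% ± 0.305 of sense counts. Among 932 groups of genes that share the number in their symbol, it ranked 8 by mean level, at rank 10 in replicate 1 and rank 9 in replicate 2. miR-99 stood above it at 24977 ± 3020 CPM and miR-128 below it at 20177 ± 4713 CPM. After miR-128 came miR-125 at 19670 ± 13994 CPM. The library ranges of all 3 overlapped that of miR-29. Compared within a library, however, miR-99 was the higher family both times, with rank 8 in replicate 1 and rank 7 in replicate 2. By contrast, miR-128 and miR-125 were above miR-29 in replicate 1 and below it in replicate 2. The order of miR-29 against miR-128 and miR-125 is therefore not settled. Reads with several places in the genome, 41.8% of reads in replicate 1 and 46.4% in replicate 2, are left out of all family sums. How they would change the ranks was not tested. These are bulk samples, in which fewer cells of a type and less RNA per cell cannot be told apart.

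Nearly all countable miR-29 signal came from Mir29a. Mir29a had 107986 counts (20900 CPM, 20776 to 21026) in replicate 1 and 73579 counts (16498 CPM, 16379 to 16617) in replicate 2, with a mean of 18699 ± 3113 CPM. It was highest of the family in both libraries and took rank 11 of all 2202 miRNA genes, above 97.3% of the 409 expressed genes. It held 91.4% of the family's counts in replicate 1 (91.3% to 91.6%) and 89.0% in replicate 2 (88.7% to 89.2%). Mir29a was the 1 member that shares no stretch of 20 bases with another miRNA gene. Such a stretch was found at 3 of the 4 members and at 51.5% of all miRNA genes. Reads with several places are left out of the gene ranks too, and how they would change the rank of Mir29a was not tested.

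Mir29c followed, well below Mir29a. It had 9182 counts (1777 CPM, 1741 to 1814) in replicate 1 and 8648 counts (1939 CPM, 1898 to 1980) in replicate 2, with a mean of 1858 ± 114.4 CPM and rank 70. Its share of the family was 7.78% (7.62% to 7.93%) in replicate 1 and 10.5% (10.2% to 10.7%) in replicate 2. The count at Mir29a was 11.8 times that at Mir29c in replicate 1 (11.51 to 12.02) and 8.51 times in replicate 2 (8.32 to 8.70), although their 3p arms differ by a single base. The log2 difference of Mir29a over Mir29c was 3.32 ± 0.33 on log2(CPM + 1), which exceeds its spread between the libraries.

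The 2 genes of miR-29b were the lowest. Mir29b-2 had 592 counts (114.6 CPM, 105.5 to 124.2) in replicate 1 and 253 counts (56.7 CPM, 49.95 to 64.16) in replicate 2, with a mean of 85.7 ± 40.9 CPM and rank 207. Mir29b-1 had 332 counts (64.3 CPM, 57.5 to 71.6) in replicate 1 and 239 counts (53.6 CPM, 47.0 to 60.8) in replicate 2, with a mean of 58.9 ± 7.55 CPM and rank 220. Both means lay below the median of the expressed genes, 88.9 CPM. Mir29b-2 stood above Mir29b-1 beyond counting error in replicate 1, at 1.78 times its count (1.56 to 2.05). In replicate 2 the ratio was 1.06 (0.884 to 1.27), so the levels of the 2 genes overlapped and their order is not settled.

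**Figure D1:**
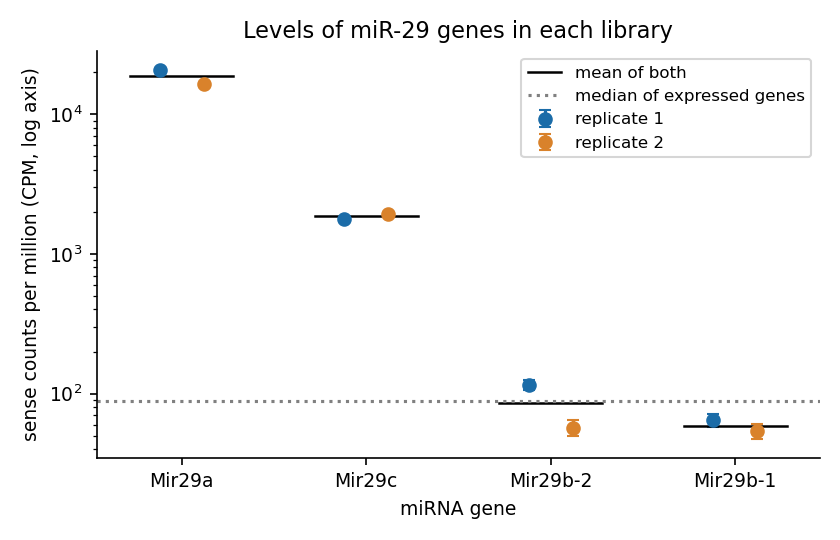
Level of each miR-29 gene (horizontal axis) in CPM on a log axis (vertical axis), with 1 point per library, exact 95% counting intervals as bars and the mean of both libraries as a line. Mir29a stands at 16498 to 20900 CPM and Mir29c at 1777 to 1939 CPM, while Mir29b-2 lies on either side of the median of expressed genes (dotted, 88.9 CPM) and Mir29b-1 below it in both libraries.

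The genes above and below each member in rank show how far these places are settled between the libraries, on the counted reads alone. Next to Mir29a were Mirlet7d (20534 ± 3381 CPM), of the let-7 family of differentiated tissue, above, and Mir125a (18404 ± 13864 CPM) below, and both overlapped it between the libraries. In all, 4 other genes overlapped the range of Mir29a, at ranks 10 to 14. Mir29c stood next to Mir140 (1862 ± 1566 CPM), which overlapped it, and Mir27b (1651 ± 106.3 CPM), which did not. The range of Mir29c overlapped that of 22 other genes, at ranks 50 to 82. Mir29b-2 stood between Mir410 (87.7 ± 22.2 CPM) and Mir9-3 (80.1 ± 31.4 CPM), and Mir29b-1 between Mir412 (59.1 ± 13.5 CPM) and Mir1298 (58.9 ± 12.4 CPM). All of these overlapped them, with 61 other genes overlapping Mir29b-2 and 40 overlapping Mir29b-1. Ranks of the miR-29b genes are therefore loose, with overlapping genes from rank 137 to ranks 239 and 251.

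Within both clusters the miR-29b gene was far below its neighbour. Clustered miRNA genes this close are usually cut from a common primary transcript. On chromosome 6 the count at Mir29a was 325.3 times that at Mir29b-1 in replicate 1 (292.0 to 363.4) and 307.9 times in replicate 2 (271.2 to 351.0). The log2 difference was 8.28 ± 0.06 on log2(CPM + 1), nearly the same in both libraries. On chromosome 1 the count at Mir29c was 15.5 times that at Mir29b-2 in replicate 1 (14.3 to 16.9) and 34.2 times in replicate 2 (30.2 to 38.9). That log2 difference was 4.51 ± 0.80, and its intervals did not overlap between the libraries. By cluster, chromosome 6 held 91.7% of the family's counts in replicate 1 and 89.2% in replicate 2, against 8.28% and 10.8% for chromosome 1.

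What can be counted at a gene differs along its hairpin, and every window of 20 bases was compared with all other annotated miRNA hairpins on both strands. All 4 such windows inside the 3p arm of Mir29b-1 and all 4 inside that of Mir29b-2 were found letter for letter at the other gene. A read lying wholly within miR-29b-3p therefore has at least 2 equally good places. In these tables reads with several places are counted on a line of their own, which held 6203588 reads in replicate 1, or 41.8% of its reads, and 5928954 in replicate 2, or 46.4%. How many of them are miR-29b-3p was not tested, so the levels of Mir29b-1 and Mir29b-2 are uncertain as levels of miR-29b. The same holds for the within-cluster differences above, for each member's share of the family and for the split between clusters. Intervals of these shares do not cover the reads left out.

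Windows inside the other arms were not repeated exactly. For the 5p arms the nearest other gene was 2 mismatches away at Mir29b-1 and Mir29b-2 and 3 mismatches away at Mir29a and Mir29c. For the 3p arms of Mir29a and Mir29c it was 1 mismatch away in every window, and whether mismatched reads were split between members was not tested. Over whole hairpins, an exact repeat was found for 9 of 52 windows of Mir29b-1, 6 of 62 of Mir29b-2, 3 of 69 of Mir29c and 0 of 69 of Mir29a. With windows of 24 bases, these numbers were 2 of 48, 2 of 58, 0 of 65 and 0 of 65.

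**Figure D2:**
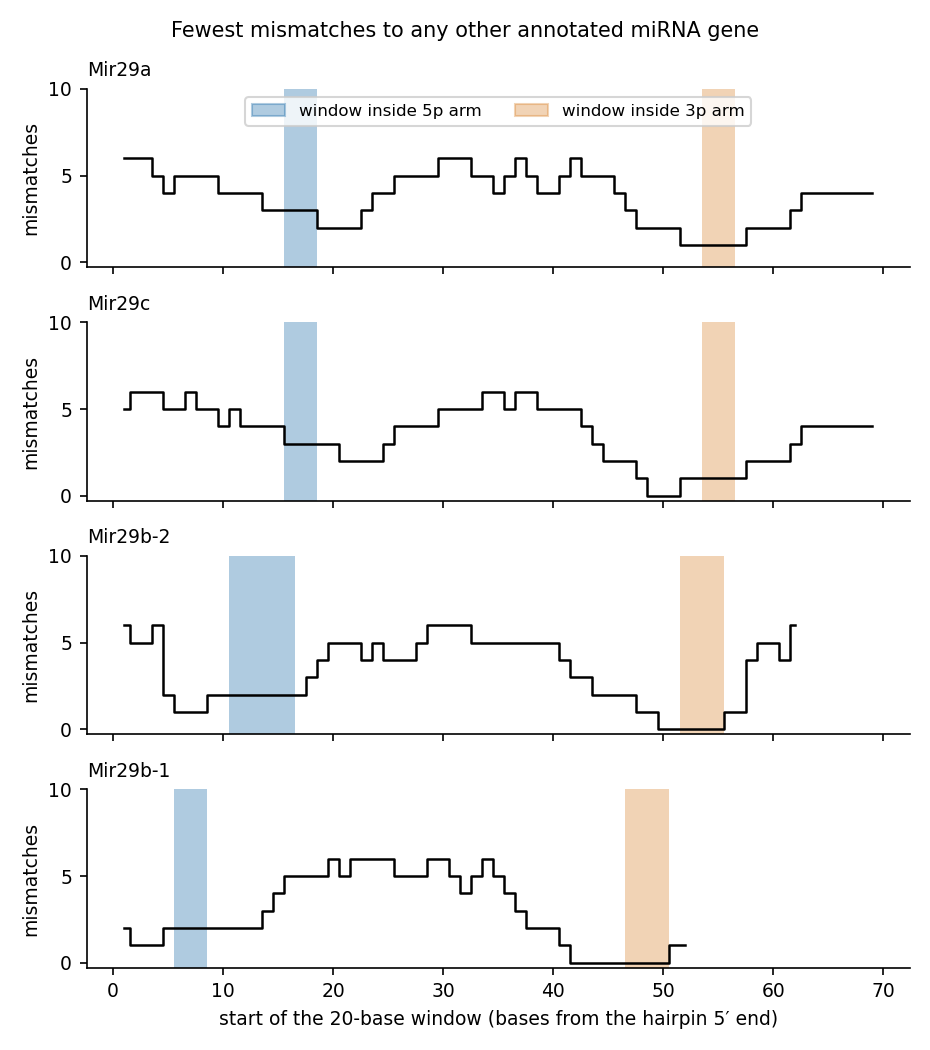
Fewest mismatches between each 20-base window of a miR-29 hairpin and any other annotated miRNA gene (vertical axis, number of bases) by the window's start from the hairpin 5′ end (horizontal axis, bases). The line reaches 0 across the 3p arm (orange) of Mir29b-2 and Mir29b-1 and stays at 1 in that of Mir29a and Mir29c, while windows inside the 5p arms (blue) lie at 2 or 3.

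The low share of copied loci was set beside that in 4 other families with loci that differ by a final number and share 20 bases with another miRNA gene. In miR-29 these were 2 of 4 loci, and they held 0.782% of the family's counts (0.733% to 0.834%) in replicate 1 and 0.595% (0.544% to 0.650%) in replicate 2. In let-7, 6 of 11 loci held 2.13% and 2.02%. In miR-26, 2 of 3 loci held 1.05% and 1.15%, and in miR-30, 2 of 7 held 1.74% and 2.34%. The share in miR-29 was the lowest of the 5 families in both libraries, with a counting interval below those of the others. In miR-181, 4 of 6 loci held 38.6% and 41.9%, so a low share was not found in every family with copied loci. These families were picked with earlier results known, and the comparison carries no test.

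**Figure D3:**
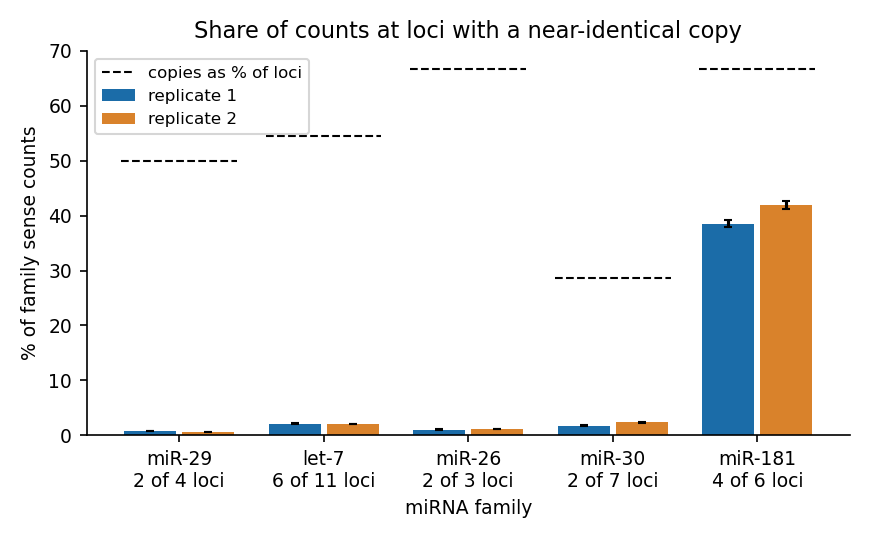
Share of a family's sense counts, in percent (vertical axis), at loci that have a final number and share 20 bases with another miRNA gene, for 5 families (horizontal axis) with 1 bar per library and exact 95% counting intervals. Dashed lines give the same loci as a share of all loci of the family. miR-29 stands at 0.782% and 0.595%, the lowest, and miR-181 at 38.6% and 41.9%.

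Within the family, the libraries differed most in Mir29b-2, while the gene that differed least depended on the scaling. Ratios of replicate 2 to replicate 1 were scaled by TMM, which shifted all log2 ratios by 0.19 compared with raw totals. The log2 ratio was -0.16 for Mir29a (-0.17 to -0.14), 0.31 for Mir29c (0.27 to 0.35), -0.08 for Mir29b-1 (-0.32 to 0.17) and -0.83 for Mir29b-2 (-1.05 to -0.61). Mir29a was thus lower and Mir29c higher in replicate 2, both beyond counting error, and Mir29b-1 did not differ beyond it. After TMM the smallest absolute ratio was that of Mir29b-1, but its interval held the value of Mir29a. On raw totals the smallest was that of Mir29c, at 0.13, against -0.26 for Mir29b-1. None of the 4 passed 2-fold, which 23.2% of the 409 expressed genes did, but on raw totals Mir29b-2 did, at -1.01. The median absolute log2 ratio of expressed genes was 0.54, with quartiles of 0.29 and 0.97. Mir29a, Mir29b-1 and Mir29c lay below that median, with 14.2%, 7.09% and 27.6% of expressed genes showing smaller ratios, and Mir29b-2 above it, with 68.5%.

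Genes of similar level had a median absolute log2 ratio above the value of Mir29a, Mir29b-1 and Mir29c, and below that of Mir29b-2. Among the 30 genes within 20 ranks of Mir29a the median absolute log2 ratio was 0.52, and among the 40 around Mir29c it was 0.56. Around Mir29b-1 it was 0.69, and around Mir29b-2 it was 0.49, below the value of Mir29b-2 itself. In replicates 1 and 2 the glial marker sum was 35269 and 44998 CPM, the neuronal sum 36826 and 32458 CPM, and the endothelial gene Mir126a 21256 and 10411 CPM. The part of these differences, and of that in the epithelial genes, in the values of the miR-29 genes was not tested.

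**Figure D4:**
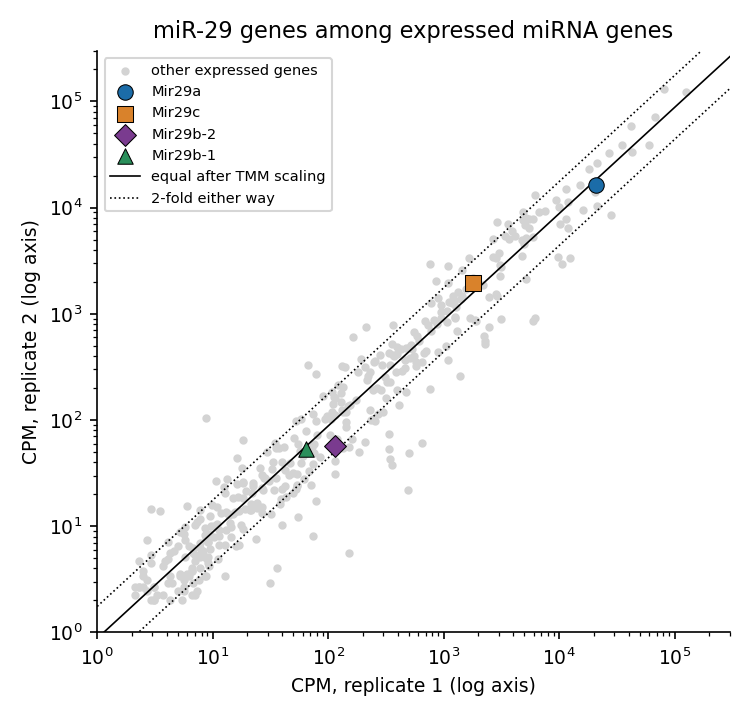
Level of each of the 409 expressed miRNA genes in replicate 1 (horizontal axis) and replicate 2 (vertical axis), in CPM on log axes, with the 4 miR-29 genes marked. The solid line marks equal levels after TMM scaling and the dotted lines 2-fold either way. All 4 lie within the dotted lines, and Mir29b-2, at a log2 ratio of -0.83, lies closest to one.

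All miR-29 counts were on the sense strand. No antisense count was recorded at any of the 4 genes in either library, which allows an antisense share of up to 0.00254% of 118092 counts in replicate 1 and 0.00363% of 82719 in replicate 2. The column without strand held the same counts as the sense column at all 4, including Mir29b-2 and Mir29c, which lie opposite an exon of Cd46.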

How the data were processed

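The authors deposited raw counts of reads at each miRNA gene, on mm10 with GENCODE M21 per the description deposited with the tables. No source used here names the aligner or the counter. Of 3 count columns a table, the stranded column with the larger gene total was taken as sense. The 4 rows that name no gene (65.2% and 65.1% of reads in replicates 1 and 2) were left out of totals. IDs were matched to GENCODE M21, and the hairpin sequences and positions of the 4 members were identical in the RefSeq table (GRCm38.p6). CPM, exact Poisson and Clopper-Pearson 95% intervals and conditional binomial ratio intervals were computed in Python 3.11.15 with scipy 1.17.1. Ratios add 0.5 to each count and use edgeR 4.0.16 TMM (filterByExpr, 404 genes); DESeq2 1.42.0 size factors were an alternative. The ratio step was tested on simulated counts with known folds and Poisson error alone, so that test does not cover variation between libraries. Hairpins were aligned with biopython 1.88 and folded with RNAfold 2.7.2. With 1 group there was no contrast and no quasi-likelihood test. Genes named are the members, the gene next above and below each in rank, genes sharing the 3p seed and the marker genes; Mir92b, Mir335, Gm24802 and overlapping genes were named after their values or positions were seen. The members, marker lists and families were chosen with earlier results of these data known. Reads of CAST alleles that differ from the reference may have been lost, which was not tested.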

Additional observations from a re-analysis of the deposited data

Results flagged for a closer look

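Reads with several places in the genome are data outside the sense counts, listed as 1 total per library. They numbered 6203588 in replicate 1 and 5928954 in replicate 2. They are not split by gene, and the number that belongs to miR-29b-3p, which is identical at Mir29b-1 and Mir29b-2, was not tested. With 2 libraries, neither was assessed as an outlier.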

How the results depend on the processing

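Of 67 alternative values over 14 results, 13 moved. For a level, share or difference that means by the SD of the libraries or more. For a ratio it means by 0.5 of the width of its counting interval or more, and for the number of genes by over 1.5 times. Only log2 differences and ratios have a direction that could reverse, and none did. Shares could not move in the unstranded column, which held the same counts as the sense column at every member. With all reads as the denominator, levels were 6515 CPM for Mir29a, 647.5 for Mir29c, 29.8 for Mir29b-2, 20.5 for Mir29b-1 and 7213 for the family, since the denominator then holds reads outside miRNA genes. In the unstranded column, whose gene total is smaller, Mir29c stood at 2011 CPM. With a pseudocount of 10 CPM the log2 difference of Mir29a over Mir29b-1 was 8.08. The log2 ratio of replicate 2 to replicate 1 was -0.34 for Mir29a and 0.13 for Mir29c on raw totals, -0.21 and 0.26 without a filter before TMM, and -0.14 for Mir29a with DESeq2 size factors. Genes with any count in both libraries numbered 619, against 409 at 2 CPM. With 2 libraries, leaving 1 out must move a level, share or difference by less than the SD, so such values could not count as moved. Without replicate 1 Mir29b-2 stood at 56.7 CPM, over 1.5 times below its mean of 85.7 CPM, and without replicate 2 at 114.6 CPM. Mir29c over Mir29b-2 was then 5.07 or 3.94 on the log2 scale. No paired analysis was possible because there is 1 group. Counting error was largest, relative to the level, at the miR-29b genes, with 239 to 592 counts. Reads wholly within miR-29b-3p have several places at any depth.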
